A study of Mus musculus with 7 samples.

Results

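Metalloproteases are zinc enzymes that cut proteins outside the cell and at its surface, and 10 of their genes or of the genes of their inhibitors were followed in wound macrophages. The set held 6 matrix metalloproteases (Mmp8, Mmp9, Mmp12, Mmp13, Mmp14 and Mmp19), 2 membrane-bound Adam proteases (Adam8 and Adam17) and 2 tissue inhibitors (Timp1 and Timp2), of 30176 genes with a probe set of their own. Members were chosen by name with the difference between the days in these same data already known, so their levels and differences are a description. A choice between probe sets by their mean level was foreseen but not needed, since each member had exactly 1.

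The cells were CD11b+ wound macrophages sorted for F4/80 from polyvinyl alcohol sponges that had been placed under the back skin of C57BL/6 mice. The d7 group held 4 samples (replicates 5, 6, 7 and 8), taken 7 days after implantation, and the d3 group held 3 samples (replicates 1, 3 and 4), taken after 3 days. Both groups carried the same sponge wound, no genetic change or drug was named for either, and the number of animals behind a sample was not given in the sources used here. The methods give an age of 8 to 10 weeks and both sexes for mice of the whole study. RNA of each sample was read on 1 Affymetrix Mouse Transcriptome Array 1.0, and a level is the deposited log2 value of a probe set. A probe set was taken to be above background where it exceeded 5.39, the highest value of an antigenomic control, a probe that matches no mouse sequence, on any array. A gene was counted as at background where its mean on each day was at or under that value. Levels of different probe sets are not comparable with each other, since probes differ in brightness.

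Matrix metalloproteases are made as inactive proenzymes and become active once an inhibitory propeptide is cut away or displaced. Collagenases such as Mmp8 and Mmp13 cleave fibrillar collagen, the gelatinase Mmp9 digests denatured and basement membrane collagen, and Mmp12 is the elastase of macrophages. Mmp14 stays in the membrane and activates other proenzymes there. Adam proteases instead shed the outer parts of membrane proteins, and Timp proteins block the catalytic site of active metalloproteases. Macrophages of a wound use these enzymes to move through matrix, to clear it and to release cytokines and receptors.

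The arrays resembled each other in their medians, which lay between 4.14 and 4.22 over 65956 probe sets. The array of d3 replicate 3 was dimmer in its positive controls, at a median of 9.78, while the remaining 6 arrays had 10.01 to 10.09. Of the macrophage markers, 11 of 11 were above background, with a mean level over the list of 15.57 to 15.61 on d7 and 15.11 to 15.51 on d3. Fibroblast markers were at background in 11 of 11 cases (Col1a1 and Dcn among them), as were 5 of 5 keratinocyte markers and 5 of 5 T and NK cell markers. By their means, 2 of 5 endothelial markers (Pecam1 and Kdr) and 1 of 7 dendritic cell markers (Ccr7) were above background on a day. So were 1 of 3 B cell markers (Cd79b) and 1 of 7 mast cell and eosinophil markers (Siglecf). Mean levels on d7 and d3 were 5.43 and 6.52 for Kdr, and 5.42 and 6.16 for Siglecf. The monocyte markers had a mean level of 11.74 to 11.97 on d7 and 12.53 to 12.86 on d3, and 8 of 14 neutrophil markers were at background. In sorted populations of this kind, fewer cells of one type and less RNA per cell cannot be told apart.

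Between the days, Mmp12 was the member that passed the test, and it was higher on d7. Over all probe sets 77 of 65956, or 0.117%, passed at an adjusted p under 0.05 with limma, 42 higher and 35 lower on d7. Because the members were chosen knowing this contrast, nothing is read from 1 of 10 members beside that share. The 4 d7 arrays lay wholly above the 3 d3 arrays for 5 members (Mmp12, Mmp13, Mmp19, Adam8 and Timp2) and wholly below them for 2 (Mmp8 and Mmp9), while the days overlapped for Mmp14, Adam17 and Timp1. Among 19774 probe sets above background, every d7 array lay above every d3 array in 6.55% and below it in 8.03%. The median log2 difference over the 10 members was 0.31, beside -0.00092 over all probe sets. Without Timp1, which was at background, it was 0.72, beside 0.00 over the probe sets above background. The SD between arrays was higher on d3 than on d7 for 9 of 10 members, all but Mmp8. The share of all probe sets with a higher SD on d3 was not counted, so nothing is read from this about the members. The weight that limma estimated for each array was lowest for d3 replicate 3, at 0.41, against 0.93 to 1.37 for the others.

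**Figure D1:**
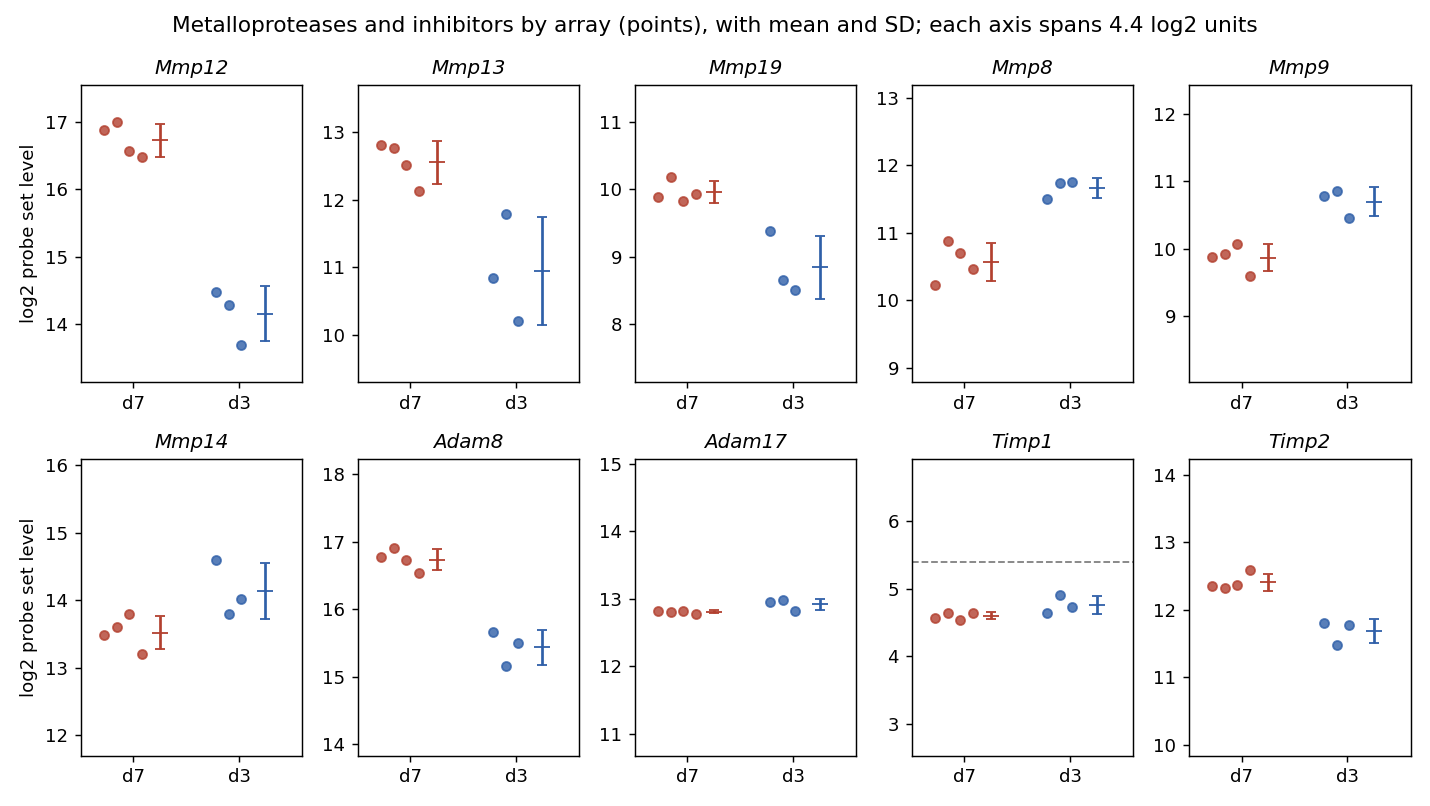
Log2 level of each member (vertical axis, 4.4 log2 units in every panel) on the 4 d7 arrays (red) and the 3 d3 arrays (blue), each array a point, with the mean and SD beside them and the array background as a dashed line where it falls in the panel. Mmp12 shows the widest gap between the days, 2.01 between the nearest arrays, and Timp1 lies under the background of 5.39 on all 7 arrays.

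Mmp12 encodes macrophage metalloelastase, which degrades elastin and other matrix proteins. Its log2 level was 16.87, 16.99, 16.56 and 16.48 on d7 replicates 5, 6, 7 and 8, against 14.47, 14.29 and 13.70 on d3 replicates 1, 3 and 4. The days did not overlap, and d3 replicate 4 was the lowest array. Mmp12 rose 5.95-fold, with a mean of 16.73 ± 0.24 on d7 (SD, n = 4) and 14.15 ± 0.41 on d3 (SD, n = 3), a log2 difference of 2.57 (standard error 0.23, 95% interval 2.01 to 3.14, limma adjusted p = 0.0433). The call was lost, at an adjusted p of 0.0753 to 0.176, when any of 6 of the 7 arrays was left out (each array but d3 replicate 1), and was kept without d3 replicate 1 (adjusted p = 0.0476), while the difference stayed between 2.35 and 2.73. The d7 levels lay above 16, the log2 limit of a 16-bit scanner reading, as did the means of 662 probe sets, and whether probes were saturated was not tested.

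Mmp13 and Mmp19 also had higher levels on every d7 array, with wider scatter on d3. Mmp13, an interstitial collagenase, had 12.80, 12.77, 12.51 and 12.12 on the d7 arrays, against 10.84, 11.79 and 10.20 on d3 replicates 1, 3 and 4. The highest d3 array, replicate 3, came within 0.33 of the lowest d7 array. The log2 difference of Mmp13 was 1.61 (95% interval 0.61 to 2.61), and its range within d3 alone was 1.60, so it did not pass (adjusted p = 0.455 in limma). Mmp19, which cleaves basement membrane components, had 9.89, 10.19, 9.83 and 9.94 on d7, against 9.38, 8.65 and 8.51 on d3. Here d3 replicate 1 was the high array of its day. The log2 difference of Mmp19 was 1.11 (95% interval 0.55 to 1.68, limma adjusted p = 0.299), and without d3 replicate 1 it was 1.38 and passed (adjusted p = 0.0451). That was the 1 of 18 adjusted alternatives in which Mmp19 passed, and calls over all probe sets rose from 77 to 212 in it. With any other single array left out, Mmp19 had a limma adjusted p of 0.458 to 0.702.

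Mmp8 and Mmp9 went the other way, with lower levels on every d7 array and no call. Mmp8, the collagenase first known from neutrophils, had 10.22, 10.88, 10.70 and 10.46 on d7, against 11.49, 11.74 and 11.76 on d3. The d3 arrays lay close together and 0.62 above the highest d7 array. The level of Mmp8 was 2.14-fold higher on d3, a log2 difference of -1.10 (95% interval -1.53 to -0.67, limma adjusted p = 0.172). Mmp9, or gelatinase B, had 9.87, 9.92, 10.07 and 9.59 on d7, against 10.78, 10.86 and 10.45 on d3. Both days were about equally spread, with d3 replicate 4 the array nearest to d7. The log2 difference of Mmp9 was -0.83 (95% interval -1.20 to -0.46, limma adjusted p = 0.223), a level 1.78-fold higher on d3.

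Mmp14 encodes the membrane type matrix metalloprotease that is anchored in the cell surface. It had 13.49, 13.61, 13.79 and 13.21 on d7, against 14.59, 13.79 and 14.03 on d3. The days met at 13.79, a value shared by d7 replicate 7 and d3 replicate 3, and d3 replicate 1 stood highest. The log2 difference was -0.61 (95% interval -1.19 to -0.04, limma adjusted p = 0.647), and it was -0.39 without d3 replicate 1.

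Among the matrix metalloproteases, then, arrays differed in which of them were high within a day. On d3, replicate 1 was the highest for Mmp12, Mmp14 and Mmp19, replicate 3 for Mmp13 and Mmp9, and replicate 4 for Mmp8. On d7, replicate 6 was the highest for Mmp12, Mmp19 and Mmp8, and replicate 8 was the lowest for Mmp9, Mmp12, Mmp13 and Mmp14.

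Markers of monocytes and neutrophils were measured beside the metalloproteases with lower d7 levels. All 6 monocyte markers measured had a lower mean on d7, and none passed. For 4 of them (Ly6c2, Ccr2, Plac8 and Hp) every d7 array lay below every d3 array, beside 8.03% of all probe sets above background. The days overlapped for Vcan (log2 difference -0.20) and F10 (-0.26). Ly6c2, a surface protein of inflammatory monocytes, had a log2 difference of -2.02 (limma adjusted p = 0.0865), and Ccr2, the chemokine receptor by which monocytes leave the marrow, had -1.07 (adjusted p = 0.0852). With probe sets at or under background left out, Ly6c2 and Ccr2 (adjusted p = 0.0201 each) and Plac8 (adjusted p = 0.0284) passed, as Mmp8 did. Ly6c2 also passed after quantile normalization (adjusted p = 0.0356), and Ly6c2 and Ccr2 after median centring (adjusted p = 0.0277 and 0.0330). Both passed with probe sets at or above the median level (adjusted p = 0.0366 and 0.0363). Plac8 passed after quantile normalization (adjusted p = 0.0469) and without d3 replicate 1 (adjusted p = 0.0426). With single arrays left out, Plac8 passed in that run alone, and Ly6c2 and Ccr2 in none. The neutrophil list had a mean level of 5.91 to 6.43 on d7 and 6.36 to 6.53 on d3. Its median log2 difference was -0.016, with 6 genes higher and 7 lower by their means on d7. By means, 6 of its 14 genes were above background on a day. Csf3r had 12.20 to 12.88 over the 7 arrays, and Cxcr2 had 7.23 to 8.31 and was highest on d7 replicate 6. Mpo and Elane were under 5.39 on every array. Ly6g was at background by its means, with 1 d7 array (replicate 5) at 5.58. Of the 14 genes 1 passed, Retnlg, which fell. It had 6.05, 6.94, 6.21 and 6.25 on d7, against 11.95, 11.33 and 10.35 on d3 (log2 difference -4.85, limma adjusted p = 0.0432). That call was lost when any of 6 of the 7 arrays was left out (each array but d3 replicate 1; adjusted p = 0.0609 to 0.191), with robust eBayes (adjusted p = 0.0599) and with array weights (adjusted p = 0.0527). S100a8 and S100a9, the calprotectin subunits of neutrophils and monocytes, did not separate the days, and d7 replicate 6 was the highest array for both, at 12.06 and 10.95. The part of these markers in the levels of Mmp8 and Mmp9 was not tested.

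**Figure D2:**
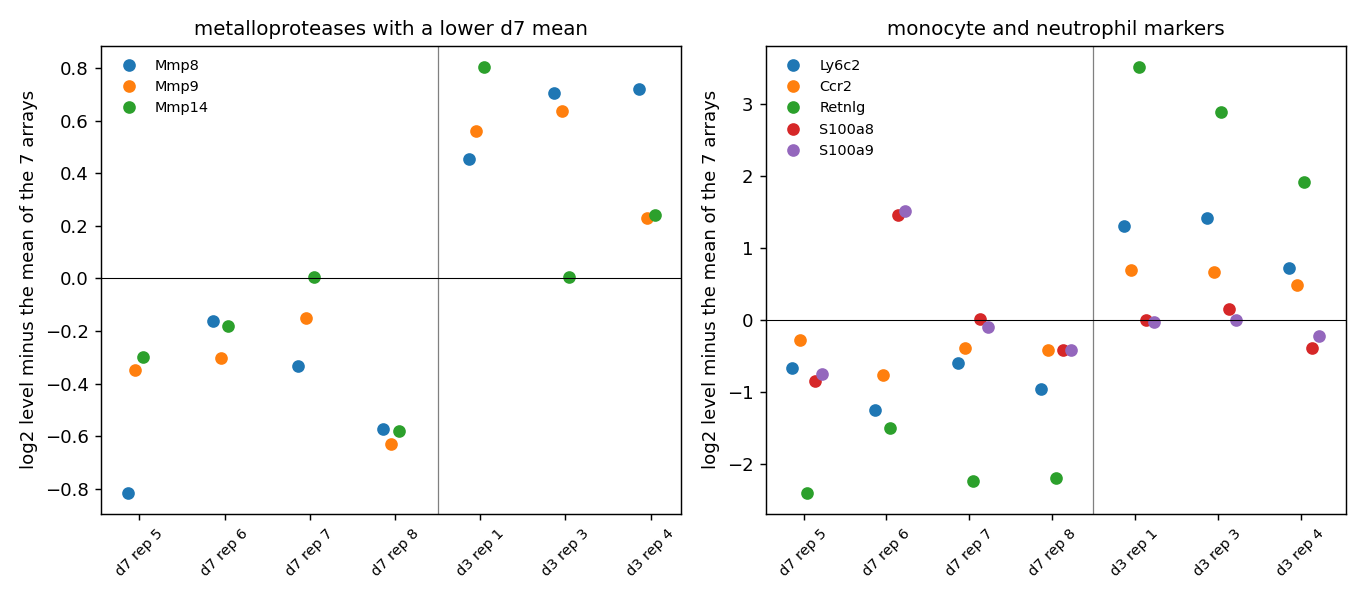
Log2 level minus the mean of the 7 arrays (vertical axis, with its own scale in each panel) on each d7 and d3 array (horizontal axis, replicates), for Mmp8, Mmp9 and Mmp14 (left panel) and for 5 monocyte and neutrophil markers (right panel). Mmp8, Mmp9, Ly6c2, Ccr2 and Retnlg are above their mean on all 3 d3 arrays and below it on all 4 d7 arrays, while S100a8 and S100a9 stand 1.46 and 1.52 above theirs on d7 replicate 6. The monocyte markers Plac8, Hp, Vcan and F10 are not drawn, and the days overlapped for Vcan and F10.

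Adam8 had higher levels on every d7 array, while Adam17 overlapped between the days. Adam8, a protease-disintegrin of leukocytes, had 16.78, 16.91, 16.73 and 16.54 on d7, against 15.66, 15.16 and 15.50 on d3. The days did not overlap, with 0.88 between their nearest arrays. The level was 2.46-fold higher on d7, a log2 difference of 1.30 (95% interval 0.94 to 1.66), which did not pass over all probe sets (limma adjusted p = 0.0762). Adam8 passed in 4 of 18 adjusted alternatives. These were quantile normalization (adjusted p = 0.0243), median centring (adjusted p = 0.0319) and the filters at the median level (adjusted p = 0.0331) and at background (adjusted p = 0.0181). It did not pass with any single array left out (limma adjusted p = 0.0645 to 0.269) or with the methods' t-test after Benjamini-Hochberg (adjusted p = 0.185). The d7 levels of Adam8 were, like those of Mmp12, above the 16-bit limit.

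Adam17 encodes the sheddase that releases tumor necrosis factor from the cell. It had 12.82, 12.81, 12.82 and 12.77 on d7, against 12.95, 12.98 and 12.82 on d3. The d7 arrays were nearly level, and d7 replicates 5 and 7 and d3 replicate 4 shared the value 12.8192. The log2 difference was -0.11 (95% interval -0.21 to -0.01, limma adjusted p = 0.647), so the interval held no difference larger than 0.21 in size.

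The Timp genes gave 1 inhibitor with a clear level and 1 without. Timp2, which blocks many matrix metalloproteases and also takes part in the activation of pro-Mmp2 by Mmp14, had 12.36, 12.32, 12.37 and 12.60 on d7, against 11.81, 11.48 and 11.78 on d3. The days were 0.52 apart at their nearest arrays, and d7 replicate 8 was the highest. The log2 difference of Timp2 was 0.72 (95% interval 0.46 to 0.99, limma adjusted p = 0.145), a level 1.65-fold higher on d7. Timp1 had 4.57, 4.65, 4.54 and 4.65 on d7, against 4.65, 4.91 and 4.73 on d3. Every array was under the background of 5.39, so that this probe set gives an upper bound only and no fold for Timp1. With the probe sets at or under background left out of the test, Timp2 (adjusted p = 0.0371), Mmp8 (adjusted p = 0.0436), Adam8 (adjusted p = 0.0181) and Mmp12 passed, of 374 calls among 19774 probe sets.

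The remaining genes of the families were mostly at background. Of 16 further matrix metalloproteases measured, 14 were at background on both days, the gelatinase Mmp2 and the stromelysin Mmp3 among them, and none passed. Mmp27 was above background, with 10.71, 10.88, 10.71 and 10.85 on d7, against 9.99, 10.60 and 10.71 on d3, and the days touched. Mmp25, a membrane-anchored metalloprotease of leukocytes, had 4.89 to 5.06 on d7, all under background, against 6.06, 5.49 and 5.54 on d3, all above it (limma adjusted p = 0.289). Measured against the background, it was at least 1.23-fold higher on d3. All 5 further inhibitors (Timp3, Timp4, Reck, A2m and Pzp) were at background, and so were 17 of 18 Adamts proteases, of which Adamts10 was the exception. The median log2 difference over the further matrix metalloproteases was 0.00, and -0.20 over the 2 above background.

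Of the members, 3 belong to a cluster of 10 Mmp genes on mouse chromosome 9, which in genome order are Mmp13, Mmp12, Mmp1b, Mmp3, Mmp1a, Mmp10, Mmp8, Mmp27, Mmp20 and Mmp7. Only 4 of the 10 were above background here, and the other 6 had levels of 3.36 to 4.53. The neighbours Mmp13 and Mmp12 had d7 arrays above d3 arrays, Mmp8 had them below, and Mmp27 overlapped.

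**Figure D3:**
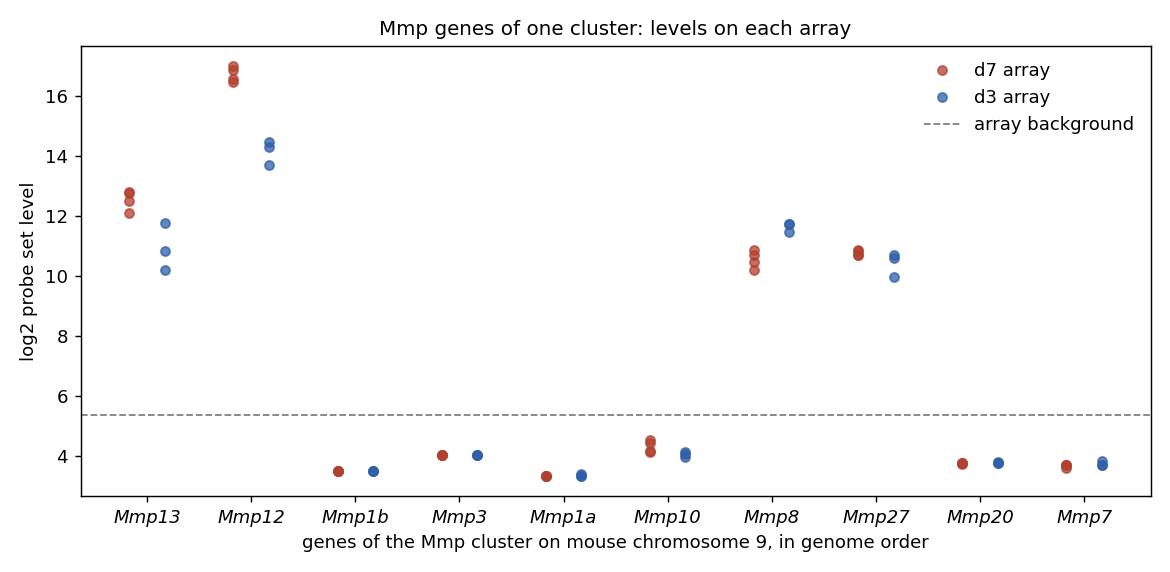
Log2 level (vertical axis) of the 10 Mmp genes of the chromosome 9 cluster in genome order (horizontal axis, not to scale), with each d7 array in red to the left of each d3 array in blue and the array background as a dashed line. Mmp13, Mmp12, Mmp8 and Mmp27 are above the background, and the other 6 lie between 3.36 and 4.53.

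Promoter sequences are shown for 4 cluster genes, to set 3 genes above background (Mmp12, Mmp13 and Mmp8) beside 1 at background (Mmp3). The AP-1 transcription factors bind sites close to the letters TGANTCA and have long been linked to Mmp promoters. Each line gives 150 bases of RefSeq (GRCm38.p6, plus strand), 120 before and 30 after the annotated start, with TGANTCA in capitals where it occurs. For Mmp12, which has more than 1 annotated start, the window shown is the one that holds the match.
Mmp12 (chr9:7347254-7347403): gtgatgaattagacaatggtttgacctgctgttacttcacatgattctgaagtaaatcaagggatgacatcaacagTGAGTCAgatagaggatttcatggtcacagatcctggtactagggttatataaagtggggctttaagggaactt
Mmp13 (chr9:7272394-7272543): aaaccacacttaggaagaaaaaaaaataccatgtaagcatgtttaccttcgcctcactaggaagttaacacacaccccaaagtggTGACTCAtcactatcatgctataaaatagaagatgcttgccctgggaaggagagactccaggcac
Mmp8 (chr9:7558309-7558458): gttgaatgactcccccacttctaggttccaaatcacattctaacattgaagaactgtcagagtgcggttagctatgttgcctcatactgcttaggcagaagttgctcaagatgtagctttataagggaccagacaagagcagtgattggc
Mmp3 (chr9:7445702-7445851): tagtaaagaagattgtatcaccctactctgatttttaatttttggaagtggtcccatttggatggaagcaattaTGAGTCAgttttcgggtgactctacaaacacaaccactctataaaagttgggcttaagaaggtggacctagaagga
The match began 44 bases before the start in Mmp12, 35 in Mmp13 and 46 in Mmp3, and Mmp8 had none in its window. TGANTCA, whose reverse complement reads the same so that both strands are covered at once, was found in the 300-base windows (250 before and 50 after the start) of 8 of the 10 cluster genes, namely Mmp12, Mmp13 and all 6 genes at background, and not in those of Mmp8 and Mmp27. It was found in 7.81% of 32851 windows of the table. Of the 8 members with a window, 2 held it. Genes with the match thus included both Mmp12, above background, and Mmp3, at background.

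Of 10 further Adam genes measured, 4 were above background (Adam9, Adam10, Adam15 and Adam19), and none passed. Adam9 had the largest log2 difference of the 4, 0.66 (limma adjusted p = 0.647), and without d3 replicate 3 it had 0.37. Adam10, the other main sheddase of macrophages, had 0.07, which became -0.04 without that array. Of 9 partner genes, which guide these proteases through the secretory pathway or to their substrates, 1 passed. Tspan17, a tetraspanin that binds Adam10, had 8.95, 9.01, 8.93 and 8.91 on d7, against 8.51, 8.45 and 8.54 on d3. The days did not overlap, and Tspan17 rose by 0.45 on the log2 scale, or 1.36-fold (standard error 0.031, limma adjusted p = 0.0290). That call was lost, at an adjusted p of 0.0719 to 0.149, when any of 6 of the 7 arrays was left out (each array but d3 replicate 1). Rhbdf2, which carries Adam17 to the surface, had 0.19, or 0.063 without d3 replicate 3, and did not pass.

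Of 13 substrates of Adam17 measured, 9 were above background and none passed the test. Tnf, the cytokine for which Adam17 was named, had 8.45, 8.92, 8.44 and 8.60 on d7, against 9.32, 9.52 and 9.22 on d3. Its log2 difference was -0.76 (limma adjusted p = 0.249), with every d7 array below every d3 array. Mertk, the receptor for engulfing apoptotic cells, had a difference of 0.44 (adjusted p = 0.493) with d7 arrays above d3 arrays, and Il6ra, with -0.60, or -0.26 without d3 replicate 1, overlapped between the days. Cd163 was above background on 4 of 4 d7 arrays and 1 of 3 d3 arrays, and also overlapped. The median log2 difference over this list was 0.00, and 0.17 over the 9 genes above background.

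Of 10 genes for activation, docking and uptake of metalloproteases, 8 were above background and none passed. For 4 of the 8, every d7 array lay above every d3 array, beside 6.55% of all probe sets above background. Plau, the urokinase that starts plasmin formation, had 9.57, 9.33, 9.61 and 9.05 on d7, against 8.47, 8.38 and 8.17 on d3. Its log2 difference was 1.05 (95% interval 0.66 to 1.45, limma adjusted p = 0.153). Cd63, a tetraspanin that binds Timp1, had 16.87, 16.82, 16.73 and 16.85 on d7, against 15.87, 16.03 and 15.64 on d3. The days were well apart, and the log2 difference of 0.97 (limma adjusted p = 0.0556) missed the threshold. Cd63 passed after quantile normalization (adjusted p = 0.0319), median centring (adjusted p = 0.0143), with array weights (adjusted p = 0.0367), and with fewer probe sets tested (adjusted p = 0.0133 to 0.0385). Lrp1, the endocytic receptor that takes up Mmp9, Mmp13 and Timp complexes, had a difference of 0.31 (adjusted p = 0.198), and Plaur, the urokinase receptor, had 0.45 (adjusted p = 0.662), or 0.24 without d3 replicate 4. The median log2 difference over this list was 0.21, and 0.30 over the 8 genes above background.

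The genes of matrix proteins that these enzymes cut were mostly at background in the same cells. Of 11 such genes listed, Fbn1 and Spp1 had no probe set of their own and were not measured. Of 9 matrix genes, 8 were at background, Eln and Col1a1 among them. Fn1, which encodes fibronectin, was the exception, with 17.05, 17.10, 16.99 and 16.79 on d7, against 17.52, 17.03 and 16.99 on d3. The days overlapped, and the log2 difference was -0.20 (limma adjusted p = 0.662), or -0.027 without d3 replicate 1.

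**Figure D4:**
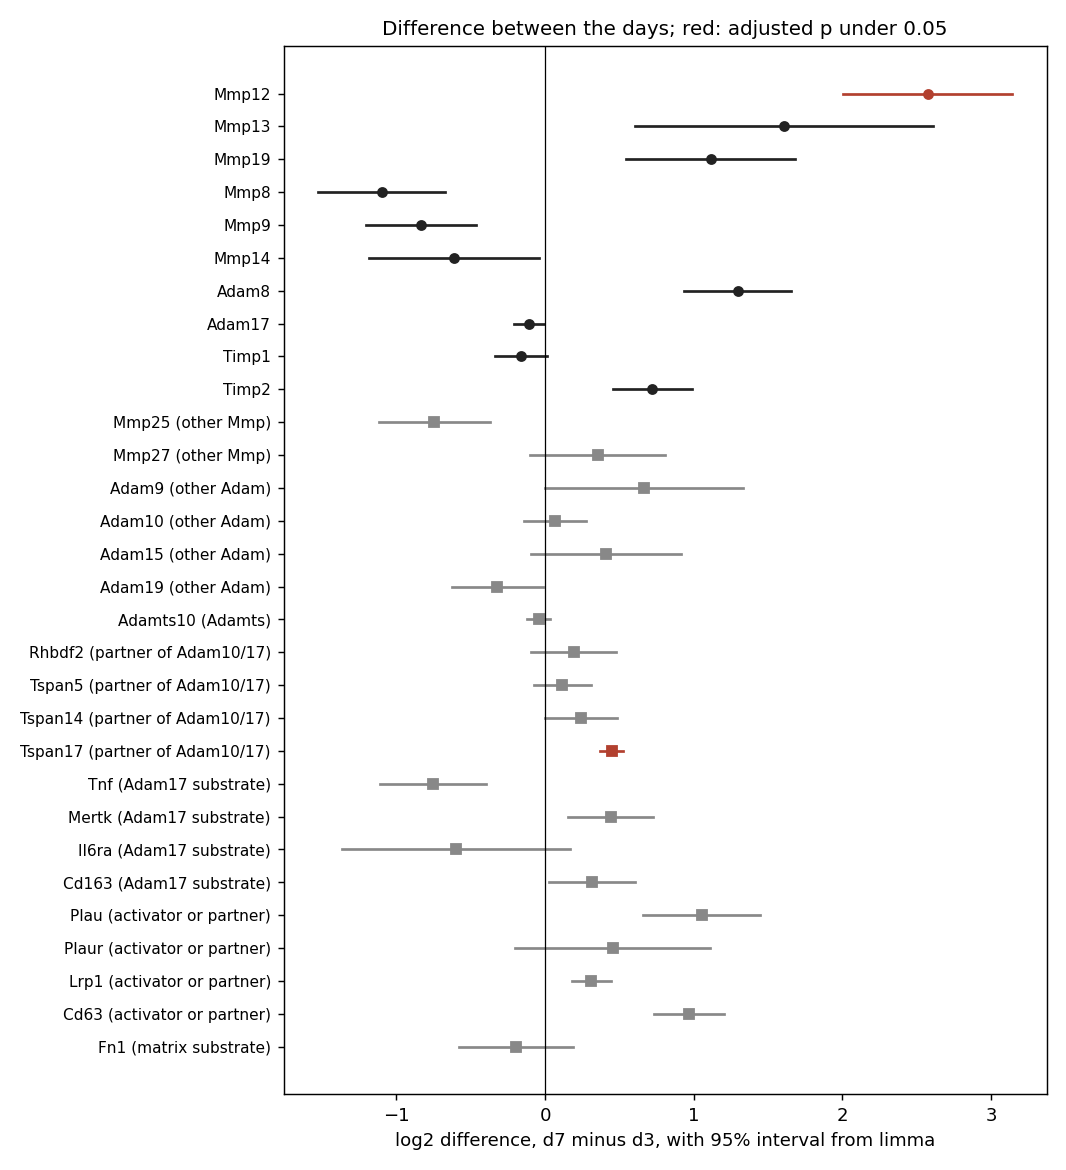
Log2 difference, d7 minus d3 (horizontal axis), with its 95% interval from limma, for the 10 members (circles, upper rows) and for named genes of the further lists (squares, list in brackets). Mmp12 at 2.57 and Tspan17 at 0.45, in red, are the genes shown that passed at an adjusted p under 0.05.

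The genes whose levels over the 7 arrays were most like those of Mmp12 were Atp6v0d2, Gpnmb and Igf1. Likeness was the root mean square difference between centred log2 profiles over 7 arrays that share the same 2 days, and it was 0.220 for Atp6v0d2, a subunit of the vacuolar proton pump, 0.360 for Gpnmb, a lysosomal glycoprotein, and 0.406 for Igf1, an insulin-like growth factor. Their log2 differences were 2.19, 2.08 and 2.00. Profiles were centred but not scaled, so a near gene has a difference of similar size by the choice itself. For Mmp8, the member with the largest negative difference, the nearest were Irak3, an inhibitor of Toll-like receptor signalling (0.188), Lacc1, a metabolic enzyme of macrophages (0.205), and Cxcl10, an interferon-induced chemokine (0.205). Their log2 differences were -1.03, -0.90 and -1.03, which the same choice keeps near that of Mmp8.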

How the data were processed

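Expression was measured in 7 samples of wound macrophages. The authors labelled and hybridized the RNA and, per the labels, summarised the arrays with Affymetrix Expression Console (version not given in the sources used here); the deposited values are log2 probe set levels. The method of normalization between arrays was not given there either, nor why many probe sets share 1 value on different arrays. In 3754 probe sets all values of each day were equal. Repeats also occurred above background, as in Adam10, at 12.2009 on d7 replicates 5, 7 and 8 and on d3 replicate 4. Of the members, 7 of 10 have 7 different values. The effect of repeated values on the SDs and intervals was not tested. The methods name Genespring GX and dChip for the analysis. Labelling kits differ between labels (WT Pico) and methods (WT PLUS).

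From 72688 deposited values per array, 6732 controls were left out. Of the 65956 probe sets, 30638 carry 1 gene symbol in the platform table, 2176 several and 33142 none listed, and genes were named from single-symbol probe sets. Mmp15, Adam12, Areg, Spp1, Fbn1, Chil3 and Pdgfra are among list genes that have none and are given no value. Each difference is d7 minus d3. It was estimated without covariates in R 4.3.3 using lmFit and then eBayes of limma 3.58.1. P-values are two-sided, were adjusted after Benjamini-Hochberg over all probe sets and were called under 0.05, and the script was tested on simulated data. Samples are labelled biological replicates, and the number of arrays limits the precision. Members and lists were chosen with earlier results of these data known. Named were all members, each list gene that passed, each Mmp or Timp above background, otherwise up to 4 genes a list above background with the largest difference, the marker genes needed for the ranges, and the 3 nearest profiles of Mmp12 and of Mmp8. Alternatives tried were quantile normalization, median centring, robust eBayes, a trend of variance on level, the methods' t-test, 2 filters on level, 1 probe set or the mean per gene, array weights and each array left out. Python 3.11.15, pandas 2.3.3, numpy 2.4.6 and matplotlib 3.10.9 were used.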

Additional observations from a re-analysis of the deposited data

Results flagged for a closer look

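In 7 of 36 genes tested, 1 of the 4 d7 arrays stood apart from the other 3, by a gap that was a larger share of the group's range than Dixon's 95% critical value for 4 arrays. Chance alone marks about 1 group in 20, and groups of 3 arrays, as on d3, were not tested. Among the members this was Timp2, at 12.60 on d7 replicate 8, against 12.32 to 12.37 on the other d7 arrays. Adam15 had 10.77 on d7 replicate 7 with 10.51 to 10.54 on the others, and the monocyte marker Plac8 had 11.69 on that array with 11.50 to 11.52 on the others. In 4 genes the other 3 d7 arrays shared a single value, so that a small step sufficed. These were Adam10 (12.205 on d7 replicate 6, 12.2009 on the others), Adamts10 (6.30 on d7 replicate 7, 6.32 on the others), Rhbdf2 (8.43 on d7 replicate 7, 8.39 on the others) and Tspan5 (8.08 on d7 replicate 8, 7.98 on the others).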

How the results depend on the processing

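No member changed direction under any alternative run. With limma, 77 probe sets and 1 member (Mmp12) passed, and of the genes in the further lists 1 (Tspan17). The counts over all probe sets, members and further lists were 169, 2 and 2 after quantile normalization, 223, 2 and 2 after median centring (Mmp12 and Adam8 both times), 208, 2 and 2 with probe sets at or above the median level, and 374, 4 and 3 with those above background, where fewer probe sets were tested. They were 13, 0 and 0 with the methods' t-test after Benjamini-Hochberg, and 3652, 8 and 11 with it unadjusted (all members but Mmp14 and Timp1). Robust eBayes in limma called 56 probe sets, 0 members and 1 gene of the further lists. At an unadjusted p under 0.05 it had 4741 of 65956 probe sets and 9 members, which were chosen knowing this contrast. Mmp12 had an adjusted p of 0.0600 with robust eBayes, in a range of 0.0105 to 0.323 over its adjusted alternatives. With array weights, 1 probe set per gene or the mean of probe sets, 2 genes of the further lists passed. Leaving out 1 array gave 1 to 212 probe sets, 0 to 2 members and 0 to 1 genes of the further lists. The highest count came without d3 replicate 1 (212, Mmp12 and Mmp19 among them) and the lowest without d7 replicate 8 (1). Without d3 replicates 3 and 4 there were 26 and 20, without d7 replicates 5, 6 and 7 there were 11, 9 and 9. An alternative added after seeing the data, leaving out both d3 replicate 3 and d7 replicate 6, gave 0 calls, 0 members and 0 in the lists in limma, with 3389 probe sets and 7 members at an unadjusted p under 0.05. Over single arrays left out, the log2 difference of Adam10 ran from -0.039 (without d3 replicate 3) to 0.14, that of S100a8 from -0.34 (without d7 replicate 6, with -0.022 without d3 replicate 4) to 0.43 and that of S100a9 from -0.34 (without d7 replicate 6) to 0.41. Without both arrays they were -0.040, -0.22 and -0.30. Beyond the fewer probe sets or arrays named, the cause of these shifts was not tested. No paired analysis was possible because the replicate numbers of the days do not overlap (5 to 8 on d7; 1, 3 and 4 on d3). Timp1 and the other genes at background are limited by signal over background.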
